A study of Mus musculus with 44 samples.

Results

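The cytosolic ribosomal protein genes were examined in liver and skeletal muscle of Slc16a13 knockout (KO) and wild-type (WT) mice, together with the muscle paralogue Rpl3l. Members were all genes with a symbol of the form Rpl or Rps, a number and at most a short suffix, plus Rplp0, Rplp1, Rplp2 and Rpsa, while pseudogene symbols ending in -ps and Gm symbols were left out. This gave 87 of the 38202 genes in the tables. They comprised 76 parent genes (31 of the small 40S subunit, 42 of the large 60S subunit and 3 of the stalk) and 11 like genes, whose symbols mark them as relatives of a parent gene, such as Rpl3l of Rpl3. The symbols Rpl24 and Rpl32l are of this form and were not analysed here. Of the 11 like genes, 5 (Rpl6l, Rps12l1, Rps3a2, Rps3a3 and Rps4l) are annotated as processed pseudogenes, and the other 6 as protein-coding.

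The cytosolic ribosome consists of a small subunit, which decodes the mRNA, and a large subunit, which forms the peptide bond, and each holds ribosomal RNA and a set of proteins that are mostly present in a single copy. Messages of ribosomal proteins are among the most abundant of most cells, and many carry a pyrimidine tract at the 5′ end (the TOP motif) through which mTOR and Larp1 control their translation. A few proteins have paralogues that replace them in certain tissues, of which Rpl3l is known from heart and skeletal muscle, where it takes the place of Rpl3 beside the peptidyl transferase centre.

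RNA-Seq of poly(A)-selected RNA was performed on liver and skeletal muscle (the muscle is not named) of 11 WT and 11 constitutive KO males, littermates on the C57BL/6N background made with CRISPR/Cas9. All mice were 20 weeks old and had received high-fat diet (HFD) for 15 weeks, and each of the 22 animals gave a liver and a muscle library (44 in all). Libraries held 20150712 to 35218243 counted reads. In liver, 99 to 302 reads were counted on Slc16a13 in WT and 0 to 8 in KO mice, but in muscle 4 to 22 were counted in WT and 11 to 40 in the libraries labelled KO, which goes against the label. These muscle counts are low, and the log2 fold change was 0.64 (SE 0.22, edgeR, unadjusted p = 0.0071, adjusted p = 0.49). The paper's deletion covers part of the promoter and the first exons. Whether the reads lie outside it was not tested. The 6 hepatocyte markers summed to 72974 CPM (counts scaled to library size) or more in each liver and to at most 7.79 CPM in any muscle. The 6 skeletal myofibre markers summed to at least 126101 CPM in each muscle and at most 56.5 CPM in any liver. The 4 slow fibre markers had a median of 2.86 CPM in WT muscle. CPM values of single members given below carry the additional scaling of the edgeR fit. The livers of KO mice 532, 583, 602 and 611 stood apart from the rest, since their log2 CPM fell with gene length relative to the other livers. Their slopes on log2 gene length were -0.53, -0.25, -0.42 and -0.08 per doubling of length, against 0.04 to 0.10 in the WT livers and 0.04 to 0.11 in the other 7 KO livers. Slopes were centred within each tissue, so a negative slope lies below the mean of its tissue. The parent genes have short transcripts (median of 646 bases; 2412 bases over the genes tested in liver), so the results in KO liver are given with and without these 4 libraries.

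Reads were 85 bases long, and whether they can tell the paralogues apart was examined in the GENCODE M21 transcripts of the mouse genome GRCm38. The stretches of 85 coding bases in which each pair is most alike are given 5′ to 3′ on the coding strand, with the bases that differ in capitals.
Rpl3: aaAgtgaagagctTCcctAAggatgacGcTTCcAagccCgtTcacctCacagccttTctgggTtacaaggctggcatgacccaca
Rpl3l: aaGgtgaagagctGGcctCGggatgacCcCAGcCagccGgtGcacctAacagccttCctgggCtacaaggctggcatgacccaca
Rps27: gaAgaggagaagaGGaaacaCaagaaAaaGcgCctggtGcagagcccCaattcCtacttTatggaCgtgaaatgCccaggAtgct
Rps27l: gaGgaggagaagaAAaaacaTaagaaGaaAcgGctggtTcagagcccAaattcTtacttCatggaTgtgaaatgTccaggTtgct
Rpl22: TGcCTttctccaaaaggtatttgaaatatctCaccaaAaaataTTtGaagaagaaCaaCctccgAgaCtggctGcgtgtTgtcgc
Rpl22l1: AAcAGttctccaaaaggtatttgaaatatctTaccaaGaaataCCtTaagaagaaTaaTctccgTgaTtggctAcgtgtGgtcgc
The Rpl3 stretch lies in exon 2 of 10 at chr15:80082420-80082504 on the minus strand, and that of Rpl3l in exon 2 of 10 at chr17:24728395-24728479 on the plus strand. For Rps27 (chr3:90213039-90213271, minus strand) and Rps27l (chr9:66946861-66947592, plus strand) it joins exons 2 and 3 of 4. For Rpl22 (chr4:152330113-152332348, plus strand) and Rpl22l1 (chr3:28806843-28807255, plus strand) it joins exons 3 and 4 of 4. Even these stretches held 15 differences for Rpl3 and Rpl3l, 14 for Rps27 and Rps27l and 15 for Rpl22 and Rpl22l1, and the coding sequences were 74.3%, 76.2% and 70.2% identical. A read of 1 gene of such a pair therefore differs from the other at many bases. Pseudogenes are another matter. Of all 85-base words in the Rpl3 transcript, only 17.995% were found in no other annotated gene (7 other genes shared words with it), compared with 100% for Rpl3l, 1.53% for Rps27, 93.3% for Rps27l, 97.9% for Rpl22 and 44.4% for Rpl22l1. Over the 76 parent genes the median was 52.7%, and 35 genes were below 50%. The deposited tables are named for uniquely assigned reads, and the 236 -ps symbols together held at most 0.00181% of the counts in any library. Levels per length of a parent gene with few words of its own may therefore be low in every library. This applies to levels between genes more than to 1 gene compared between libraries.

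Most parent genes lay within 2-fold of their median level in each tissue. Levels between genes are given as the RPKM values of the authors (reads per kilobase of gene, scaled to the size of the library). In WT liver the group means of the 76 parent genes ran from 28.6 (Rpl35) to 329.7 (Rps2) with a median of 121 RPKM, and 61 of 76 were within 2-fold of this median. In WT muscle they ran from 18.8 (Rpl3) to 440.2 (Rplp1) with a median of 128 RPKM, and 56 of 76 were within 2-fold. Across the 76 genes the log2 levels of both tissues had a Pearson r of 0.88, a description over genes that share their length, base composition and words of their own between the tissues. Against the percent of words of their own, log2 levels had an r of 0.20 in liver and 0.31 in muscle. All members together took 0.705% to 0.818% of the counts in WT liver and 0.778% to 0.886% in WT muscle.

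The parent genes varied less between mice than the median gene, except in KO liver with all libraries kept. In WT liver the SD of log2 CPM over the 11 mice had a median of 0.08 over the parent genes, compared with 0.17 over all genes tested and 0.12 over the 5776 genes within the range of level of the parent genes. In WT muscle these medians were 0.09, 0.16 and 0.10. The parent genes that varied most were Rpl27a, Rpl36, Rplp1 and Rplp2 in WT liver, with SDs of 0.27, 0.26, 0.22 and 0.18. These 4 genes were also the first 4 in WT muscle, with SDs of 0.25, 0.26, 0.17 and 0.18. Rpl22 had the lowest SD in WT liver (0.04). In KO liver the median SD was 0.51, against 0.35 over all genes tested and 0.28 over genes within the range of level. Without the 4 livers named above these medians were 0.08, 0.18 and 0.13.

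Between WT liver and WT muscle most parent genes differed by small amounts, and Rpl3 and the 5 like genes tested changed by over 1 (log2). Of the 81 members that passed the filter on low counts, 29 were higher in muscle and 32 lower at an adjusted p under 0.05 (edgeR quasi-likelihood test), that is 75.3% of members, while 91% of all 13907 genes tested differed (45.5% in each direction). In log2 fold change (muscle over liver) the parent genes had a median of -0.03, compared with -0.003 over all genes, and the median size of the change was 0.22 against 1.17. Of the parent genes, 55.3% changed by under 0.25 (log2) and 1.32%, which is Rpl3 alone, by over 1, while these shares were 13.4% and 55.1% over all genes. The split of calls depended on gene length: with the length trend of each library removed, 44 members were higher and 25 lower, against 45.7% and 45.8% of all genes, and the parent genes had a median of 0.11. In whole tissue, fewer cells of a type and less RNA per cell cannot be told apart, and the genes tested are set against each other within a library, so these values are shares of mRNA and not amounts of ribosome.

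**Figure D1:**
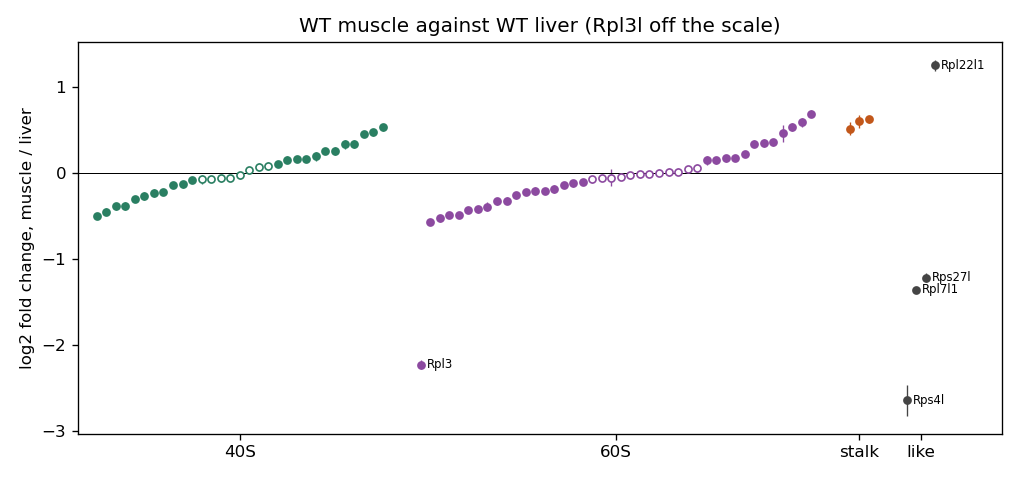
Log2 fold change of WT muscle over WT liver for the members that passed the filter, sorted within the 40S, 60S and stalk parent genes and the like genes, with bars for the standard error; filled points passed an adjusted p of 0.05. Rpl3l (12.08) is off the scale, Rpl3 (-2.23) is the only parent gene beyond 1, and the 3 stalk genes lie between 0.51 and 0.62.

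Among the 31 parent genes of the 40S subunit, 12 were higher in muscle, 11 lower and 8 did not pass the test, where 45.5% of all genes passed in each direction. The lowest log2 fold change was that of Rps6. Rps6, the substrate of the S6 kinases, was measured at 107 to 117 RPKM in WT liver (median 113) and at 75.5 to 86.7 RPKM in WT muscle (median 80.2). The groups did not overlap, and the log2 fold change was -0.51 (SE 0.03, adjusted p = 6.4e-14). Groups of 11 and 11 libraries without overlap were found in CPM for 15 members that were higher and 18 that were lower in muscle, which is to be read against 70.9% of all genes (35.2% higher and 35.7% lower). Rpsa, the protein once described as a laminin receptor, was higher in muscle by only 0.16 (SE 0.04, adjusted p = 0.00041), with 81.3 to 97.1 RPKM in liver and 95.02 to 116 RPKM in muscle, and these ranges overlapped.

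Among the 42 parent genes of the 60S subunit, 12 were higher in muscle, 18 lower and 12 did not pass the test, where 45.5% of all genes passed in each direction. Next to Rpl3, the 60S genes that fell most were Rpl11, which with Rpl5 binds Mdm2, Rpl10, which joins the subunit late, and Rpl19. Rpl11 had 177 to 216 RPKM in liver and 120.4 to 151 RPKM in muscle, without overlap, and a log2 fold change of -0.57 (SE 0.03, adjusted p = 4.2e-15). The changes of Rpl10 and Rpl19 were -0.53 (SE 0.04, adjusted p = 7.0e-12) and -0.49 (SE 0.04, adjusted p = 8.5e-13). At the other end stood Rpl12, Rpl13 and Rpl35. Rpl12, which lies at the base of the stalk, had 94.0 to 114 RPKM in liver and 157 to 190.3 RPKM in muscle. These did not overlap, and the log2 fold change was 0.68 (SE 0.04, adjusted p = 2.1e-14), while Rpl13 changed by 0.58 (SE 0.05) and Rpl35 by 0.53 (SE 0.04), with adjusted p-values of 6.2e-11 and 2.6e-11.

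All 3 stalk genes were higher in muscle, against 45.5% of all genes. The stalk is the flexible arm of the 60S subunit, built of Rplp0 and pairs of Rplp1 and Rplp2, that recruits the elongation factors. Rplp0 had 189.9 to 233 RPKM in liver (median 215) and 316 to 359.8 RPKM in muscle (median 335), a log2 fold change of 0.62 (SE 0.04, adjusted p = 5.6e-14). Rplp2 had 97.8 to 143 RPKM in liver (median 121) and 160.1 to 221 RPKM in muscle (median 191), a change of 0.60 (SE 0.07, adjusted p = 2.3e-08). For both genes each muscle was above each liver. Rplp1 had 205 to 343 RPKM in liver (median 310.3) and 364 to 489 RPKM in muscle (median 445), a change of 0.51 (SE 0.08, adjusted p = 9.7e-07), and its groups overlapped in CPM but not in RPKM. With gene length removed the median of the 3 genes was 0.66.

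The pair Rpl3 and Rpl3l was exchanged between the tissues. Rpl3 was measured at 79.5 to 98.6 RPKM in WT liver (median 85.7) and at 15.2 to 22.4 RPKM in WT muscle (median 18.4). No muscle came near a liver, and Rpl3 was the lowest of the 76 parent genes in WT muscle but the 20th from the bottom in WT liver. Its log2 fold change was -2.23 (SE 0.05, adjusted p = 5.7e-23). Rpl3l was measured at 265 to 305 RPKM in WT muscle (median 279) and at 0 to 0.123 RPKM in WT liver (median 0.074). In counts these were 8639 to 13103 reads per muscle library, against 0 to 4 per liver library, of which 2 had 0. The fitted log2 fold change was 12.08 (SE 0.14, adjusted p = 1.8e-29). Since it rests on 23 reads in all WT livers, the ratio of the reads per total count is given beside it, which was 4659 (95% exact interval 3105 to 7350, counting error only). Counted from the gene with the highest fold change in favour of muscle, Rpl3l stood at place 113 of 13907. Rpl3l made up 92.5% to 95.3% of the summed RPKM of the pair in WT muscle (median 93.7%) and at most 0.143% in WT liver. The sum of both genes was 282 to 321 RPKM in WT muscle and 79.6 to 98.8 RPKM in WT liver. As shown above, few words of Rpl3 are its own, while all of those of Rpl3l are, so this sum and share are not corrected for reads of Rpl3 that could not be placed.

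**Figure D2:**
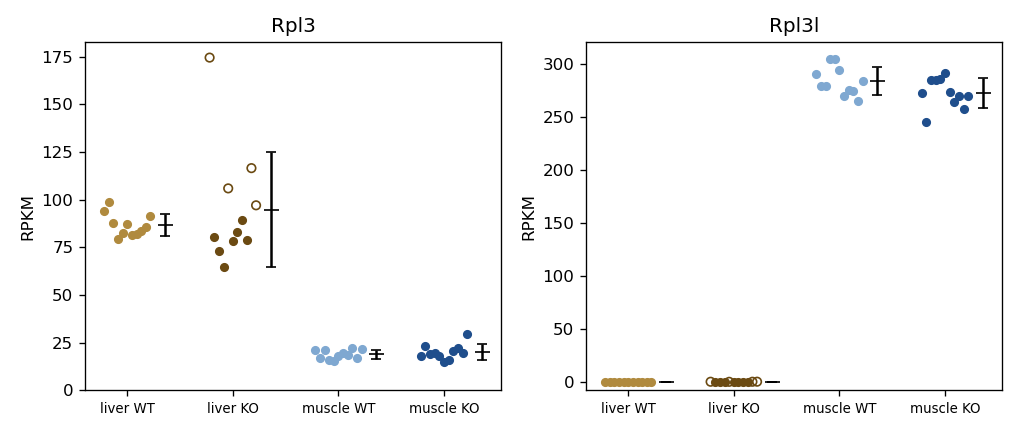
RPKM of Rpl3 (left) and Rpl3l (right) in each of the 44 libraries, with the mean and SD of the 11 libraries of each group; open circles are the 4 KO livers with a negative slope on gene length. Rpl3 lies between 79.5 and 98.6 in WT liver and between 15.2 and 22.4 in WT muscle, and Rpl3l between 265 and 305 in WT muscle and at or below 0.123 in WT liver.

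The promoter of Rpl3l is shown because the gene was nearly restricted to muscle in these libraries. RefSeq's window for the upstream of its 2 starts (GRCm38.p6, chr17:24727576-24727825, plus strand) covers the 250 bases before the start, and E-box letters CANNTG are in capitals.
Rpl3l promoter: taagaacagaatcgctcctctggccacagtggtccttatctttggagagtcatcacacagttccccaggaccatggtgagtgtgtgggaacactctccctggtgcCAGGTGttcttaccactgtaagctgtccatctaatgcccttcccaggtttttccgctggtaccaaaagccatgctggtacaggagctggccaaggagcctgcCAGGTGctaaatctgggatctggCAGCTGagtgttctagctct
It holds 3 matches to CANNTG (the same letters on both strands), first bases at -145, -43 and -20, of which 1 is CAGCTG, a form that muscle bHLH factors such as MyoD bind. Of all 32851 RefSeq windows of this length, 66.2% held CANNTG and 4271 held CAGCTG, and of the 66 windows of 56 parent genes 48.5% and 3.03% (2 windows) did. A match is a match of letters only.

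Of the other like genes tested, Rpl22l1 was higher in muscle, and Rps27l, Rpl7l1 and Rps4l were lower. Rpl22l1, a paralogue of the RNA-binding protein Rpl22, had 13.7 to 19.6 RPKM in WT liver (median 16.02) and 35.5 to 45.5 RPKM in WT muscle (median 39.1). These groups did not overlap, and the log2 fold change was 1.25 (SE 0.06, adjusted p = 2.8e-16). Rpl22 itself was measured at 104 to 124 RPKM in liver and 98.3 to 120.1 RPKM in muscle, a change of 0.002 (SE 0.04, adjusted p = 0.97), with a sign that varied with the scaling. The like gene rose from 11.9% to 17.7% of the parent's RPKM in WT liver to 31.9% to 42.5% in WT muscle. Of the words of Rpl22l1 44.4% are its own, and of those of Rpl22 97.9%, and these percents are not corrected for this.

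Rps27l, which is also known as a target of p53, went the other way. It had 157 to 225 RPKM in WT liver (median 179) and 67.5 to 90.8 RPKM in WT muscle (median 77.9), without overlap, and a log2 fold change of -1.22 (SE 0.05, adjusted p = 1.0e-17). Rps27 had 163 to 190.4 RPKM in liver and 168 to 216 RPKM in muscle, a change of 0.08 (SE 0.05, adjusted p = 0.12). Rps27l was thus at 83.2% to 118% of its parent in WT liver and at 36.2% to 45.1% in WT muscle. Only 1.53% of the words of Rps27 are its own, against 93.3% for Rps27l. These percents are not corrected for reads of Rps27 that could not be placed, so they do not show equal levels in liver. Rpl7l1, whose yeast relative acts in ribosome assembly, had 21.9 to 25.8 RPKM in WT liver and 8.87 to 10.2 RPKM in WT muscle. Its groups were apart too, and the change was -1.36 (SE 0.03, adjusted p = 1.9e-22), against -0.21 (SE 0.04, adjusted p = 5.1e-06) for Rpl7. Rps4l, a transcribed processed pseudogene of Rps4x, had 5.55 to 12.4 RPKM in WT liver and 0.683 to 2.20 RPKM in WT muscle, a change of -2.64 (SE 0.18, adjusted p = 4.1e-13). It reached at most 8.69% of the level of Rps4x in WT liver and 1.71% in WT muscle.

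The remaining 6 like genes (Rpl10l, Rpl39l, Rpl6l, Rps12l1, Rps3a2 and Rps3a3) passed the filter in no comparison. Rpl10l, a retrogene of Rpl10 that is known from testis, had 0 reads in every liver, which allows up to 3 reads per library, and up to 7 in WT muscle, but 30 in 1 muscle labelled KO. Rpl39l had 0 to 14 reads in WT muscle and 2 to 73 in the muscles labelled KO, and 0 to 3 in any liver. The other 4 had at most 25 reads in any library.

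**Figure D3:**
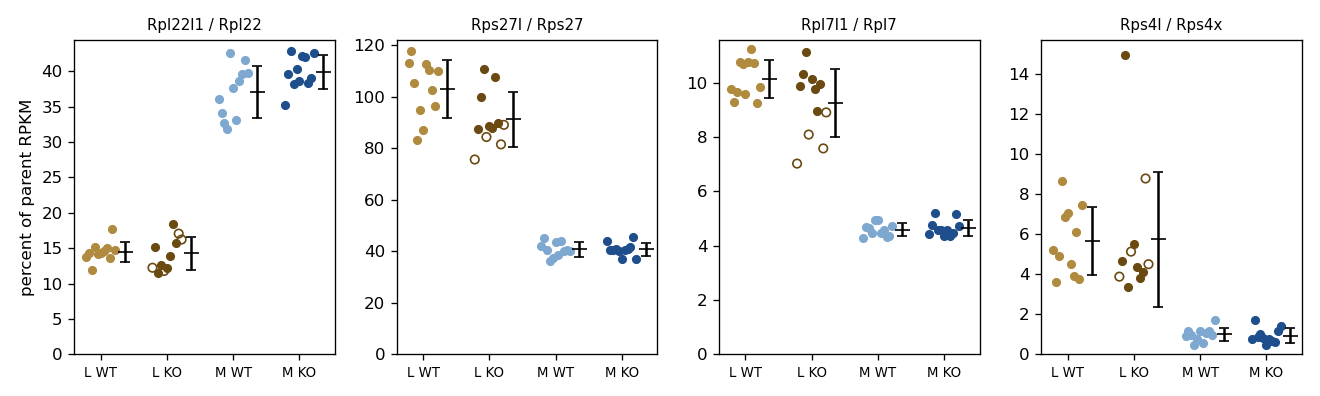
RPKM of 4 like genes as a percent of the RPKM of their parent gene in each library (L, liver; M, muscle), with the mean and SD of 11 libraries; open circles are the 4 KO livers with a negative slope on gene length. Rpl22l1 lies between 31.9% and 42.5% of Rpl22 in WT muscle, above all livers, while Rps27l, Rpl7l1 and Rps4l are lower in muscle than in liver in WT mice. The percents are not corrected for words shared with other genes.

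TOP tracts were searched at the annotated transcript starts (a C followed by at least 4 pyrimidines). They were found in the main GENCODE transcript of 11 of 76 parent genes (14.5%), in no like gene of the 6 coding ones, and in 2.13% of 21866 protein-coding genes, or in 28.9% against 5.13% when any transcript of the gene counted. Annotated starts are often a few bases off, so a missing tract says only that these letters are not at the annotated start. The 5 longest tracts are shown in capitals in the first 25 bases.
Rps24: CTCTTTTCCTCCTCTCCagctccgg
Rpl32: CTTCCTTCTTCCTCggcgctgccta
Rps2: CTTCTTCTTCTTCgggagaacacgt
Rpl30: CCTTTCTCgctccccggccatcttg
Rpl4: CTTTTCCTgtgggagcagccgggta
In GRCm38 these lie at chr14:24490718-24490742 (plus strand), chr6:115808723-115808747 (minus), chr17:24720110-24720134 (plus), chr15:34443198-34443222 (minus) and chr9:64173375-64173399 (plus).

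Genes that work with the ribosome were also measured. Of 22 other ribosome and translation genes, 12 were higher in WT muscle and 7 lower, and the median of their changes was 0.14 (log2). The elongation factor that carries aminoacyl-tRNA was exchanged like Rpl3: Eef1a1 had 2651 to 3324 RPKM in WT liver and 156 to 250.3 RPKM in WT muscle, a change of -3.92 (SE 0.08, adjusted p = 1.5e-24). Eef1a2, its form in muscle and nerve, had 526 to 613 RPKM in WT muscle and at most 0.198 RPKM in WT liver, with a fitted change of 13.54 (SE 0.25, adjusted p = 1.7e-25). Fau, which encodes the 40S protein eS30 fused to a ubiquitin-like part, was lower in muscle with a log2 fold change of -0.81 (SE 0.07, adjusted p = 1.7e-11). Rack1, a scaffold on the 40S head, changed by 0.15 (SE 0.04, adjusted p = 0.00091). Of 31 measured genes of ribosome biogenesis, 21 were higher in muscle and 7 lower with a median of 0.33. Of 12 regulators around mTOR, 7 were higher and 2 lower with a median of 0.41, which is to be read against the 45.5% of all genes in each direction.

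Between KO livers and the muscles labelled KO of the same mice, whose Slc16a13 counts go against the label, the counts moved with the 4 livers. With all 11 mice, 3 members were higher in muscle and 52 lower of 81, and the median of the parent genes was -0.42, while 86.7% of all genes differed (42.8% higher and 43.9% lower). Without mice 532, 583, 602 and 611, 29 members were higher and 29 lower, and the median was -0.03, against 43.9% and 44% of all genes. The exchange of Rpl3 for Rpl3l was seen in both: the log2 fold changes were -2.38 (SE 0.16, adjusted p = 4.3e-13) for Rpl3 and 11.89 (SE 0.19, adjusted p = 2.5e-25) for Rpl3l with all mice, and -2.08 and 12.18 without the 4. All 11 KO livers together held 24 reads of Rpl3l, and the livers kept without the 4 held 0 to 4 reads each.

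In liver, KO was compared with WT to ask whether loss of the transporter goes with a change of these genes. No member of 80 tested passed an adjusted p of 0.05 (edgeR), as did 0.0231% of all genes. At an unadjusted p under 0.05, 66 members were higher and none lower in KO liver, against 9.78% of all genes higher and 3.1% lower, and DESeq2 gave 69 higher, 0 lower and none past its adjusted p. This count moved with the method: limma-voom gave 13, library size alone 28 and the RPKM values 5, all higher, and edgeR gave 16 without mouse 532 and 16 without mouse 602. All 80 means were higher in KO, with a median of the parent genes of 0.37 (log2) against -0.01 over all genes. The 40S genes had a median of 0.37, the 60S genes of 0.37 and the stalk genes of 0.29, and without the 4 livers these were -0.05, -0.03 and -0.13.

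These values rested on the 4 livers that stood apart. In the livers of mice 532, 602 and 583 all 76 parent genes were above each WT liver in CPM, by a median of 1.31, 1.07 and 0.67 (log2) from the WT mean. In the liver of mouse 611 it was 59 of 76 genes, by a median of 0.23. In the other 7 KO livers between 0 and 6 genes were above and between 3 and 29 below the WT range, with medians from -0.11 to 0.01. For comparison, a WT liver had up to 30 parent genes above and up to 28 below the range of the other 10 WT livers. The share of all counts on members was 1.65%, 1.29%, 1.06% and 0.864% in the livers of mice 532, 602, 583 and 611. It was 0.701% to 0.736% in the other 7 KO livers and 0.705% to 0.818% in the WT livers. The order of the 4 is that of their slopes, but share and slope come from the same counts and the parent genes are short. The shared order is therefore no separate result. The summed leukocyte markers were 1802 CPM in the liver of mouse 532 and 209 to 296 CPM in the other 3. They were 176 to 267 CPM in the other 7 KO livers and 178 to 282 CPM in WT livers. In mouse 532, 1368 CPM were Cd74 and 362 CPM Lyz2, and Cd68 was the highest of the KO livers (33.7 CPM). Its Ptprc and Adgre1, at 9.11 and 29.9 CPM, lay within the other 7 KO livers (6.55 to 12.6 and 17.1 to 42.4 CPM). Both were lowest in the livers of mice 602 (2.47 and 14.2 CPM) and 583 (5.50 and 15.6 CPM). The summed endothelial markers were 63.4 to 102 CPM in the 4 livers and 103 to 118 CPM in WT livers. In the other 7 KO livers they were 94.6 to 126 CPM, which overlaps with both. Hepatocyte markers were 94359 to 101670 CPM in the 4 livers, 79383 to 98344 CPM in the other 7 KO livers and 72974 to 101119 CPM in WT livers. The part of these in the result was not tested.

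**Figure D4:**
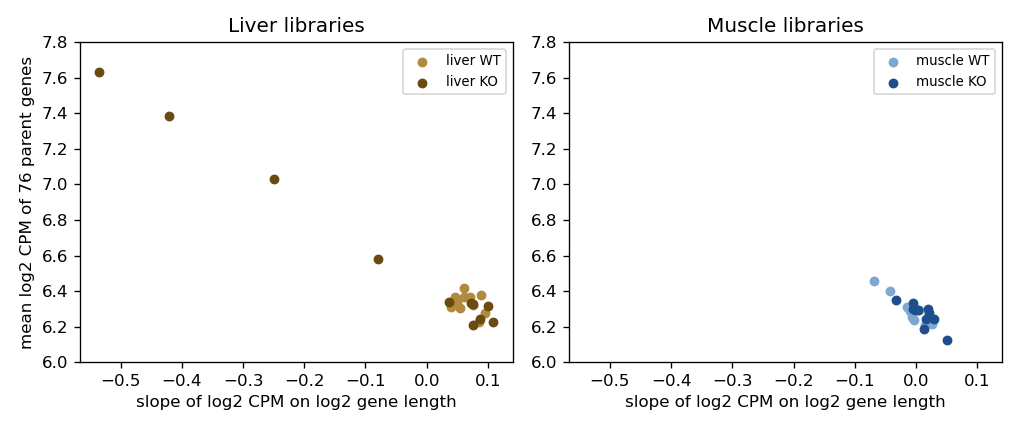
Mean log2 CPM of the 76 parent genes (y) against the slope on log2 gene length (x) in 22 liver (left) and 22 muscle libraries (right), on the same axes. The slope is that of each library's log2 CPM relative to the libraries of its tissue, so the panels do not share a reference. Both axes come from the same counts. The 4 KO livers with negative slopes have means from 6.58 to 7.63, while the other livers lie between 6.21 and 6.41 and the muscles between 6.12 and 6.46.

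Without the 4 livers, 11 of 80 means were higher in KO liver and the median of the parent genes was -0.04 (log2). No member was higher and 6 were lower at an unadjusted p under 0.05, against 1.36% and 1.6% of all genes, and none passed the adjusted p, as did 0.0227% of all genes. The 6 were Rpl12, Rpl3, Rpl39, Rplp1, Rps20 and Rps29, of which Rps20 and Rps29 are named after their values were seen. Rpl12 changed by -0.14 (SE 0.04, unadjusted p = 0.00061, adjusted p = 0.999), and Rpl3 by -0.12 (SE 0.05, unadjusted p = 0.032, adjusted p = 0.999). With all livers kept and gene length removed, 8 members were higher and none lower at an unadjusted p under 0.05, against 4.38% and 3.51% of all genes, and the median was 0.06.

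Rpl21, Rps27, Rpl28 and Rpl38 were among the 5 members with the largest test statistic in liver. Rpl38, a small 60S protein known for its part in translation of Hox messages, had 22.5 to 25.6 CPM in WT liver (median 24.2). It had 22.1 to 26.3 CPM in the other 7 KO livers and 31.9 to 80.2 CPM in the 4 livers, so that only the latter lay above the WT range as a group. Its log2 fold change was 0.54 (SE 0.20, unadjusted p = 0.011, adjusted p = 0.38), and -0.005 (SE 0.04) without the 4 livers. Rpl21 had 99.7 to 119.98 CPM in WT liver, 110.1 to 121 CPM in the other 7 KO livers and 144 to 311 CPM in the 4 livers. It changed by 0.46 (SE 0.16, unadjusted p = 0.0081, adjusted p = 0.38), by 0.20 with gene length removed and by 0.05 without the 4 livers. The changes of Rps27 and Rpl28 were 0.49 and 0.43, and 0.02 and 0.05 without the 4 livers, and each had an adjusted p of 0.38 with all livers.

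The relation of the changes to gene length among the members was also described. Across the 76 parent genes the liver log2 fold change and log2 gene length had a Pearson r of -0.56, a description over genes of the same 22 libraries. The 38 shorter genes (255 to 639 bases) had a median of 0.39 and the 38 longer ones (653 to 1861 bases) of 0.32. Without the 4 livers r was 0.13 and the medians were -0.05 and -0.04. These livers were set apart by their slope on gene length, so a weaker relation without them follows from that choice and is no separate result. In muscle the corresponding r was 0.20.

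Of the 4 like genes tested in liver, none was past an unadjusted p of 0.05. Rps27l had 77.4 to 98.3 CPM in WT livers, 73.3 to 87.4 CPM in the other 7 KO livers and 98.2 to 178 CPM in the 4 livers, a change of 0.27 (SE 0.14, adjusted p = 0.38) and of -0.07 without the 4. Rpl22l1 changed by 0.29 (SE 0.15, adjusted p = 0.38) and by -0.02 without the 4, and Rpl7l1 by 0.09 (SE 0.07, adjusted p = 0.46) and by -0.03 without the 4. Rps4l varied most, with 4.94 to 12.1 CPM in WT livers and 4.11 to 22.8 CPM in KO livers, a change of 0.31 (SE 0.27, adjusted p = 0.50) and of -0.002 without the 4.

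Of the 21 other translation genes tested in liver, 8 were higher and none lower at an unadjusted p under 0.05, with a median of 0.18, against 9.78% and 3.1% of all genes. For ribosome biogenesis it was 5 higher and 1 lower of 31 with a median of 0.07, and for the 12 regulators 2 higher and 1 lower with a median of -0.08. None passed the adjusted p. Without the 4 livers, 0 of the 21 translation genes, 3 of the 31 biogenesis genes (1 higher and 2 lower) and 0 of the 12 regulators were past an unadjusted p of 0.05, with medians of -0.02, -0.002 and 0.04, against 1.36% of all genes higher and 1.6% lower. Eef1a1, whose RPKM was 2651 to 3324 in WT liver, was at 2680 to 3087 RPKM in all KO livers, including the 4, and changed by 0.04 (SE 0.05, adjusted p = 0.64) in counts and by -0.02 without the 4.

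**Figure D5:**
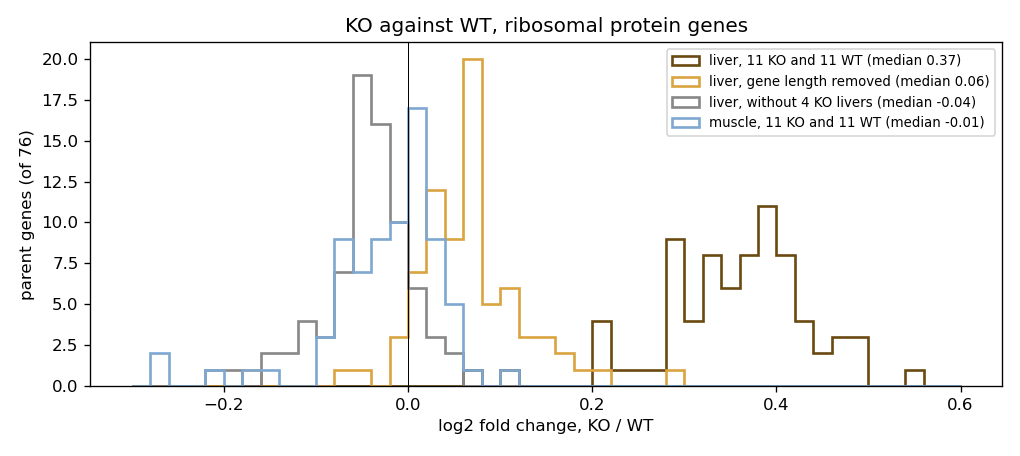
Histograms of the log2 fold changes of KO over WT for the 76 parent genes in liver (all livers; with gene length removed; without the 4 KO livers of negative slope) and in muscle libraries labelled KO and WT, in bins of 0.02. The median is 0.37 with all livers, 0.06 with length removed, -0.04 without the 4 livers and -0.01 in muscle.

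In muscle no member of 81 passed the adjusted p between libraries labelled KO and WT, as did 0.00754% of all genes. At an unadjusted p under 0.05, 2 members (Rpl22l1 and Rpl39) were higher and 6 (Rpl36, Rplp1, Rpl27a, Rps21, Rplp2 and Rplp0) lower, against 3.76% and 4.88% of all genes, and DESeq2 and limma-voom gave the same numbers. The median of the parent genes was -0.01 against 0.01 over all genes, and 74 of 76 changed by under 0.25. The 5 with the largest test statistic included 4 of the genes that varied most between WT mice. Rpl36 had 32.3 to 56.9 CPM in WT muscle (median 44.9) and 28.5 to 42.2 CPM in the libraries labelled KO (median 37.8). Its groups overlapped, and the log2 fold change was -0.28 (SE 0.09, unadjusted p = 0.0050, adjusted p = 0.49). Rpl27a had 18.7 to 31.7 CPM in WT muscle and 15.99 to 29.9 CPM in those labelled KO, a change of -0.28 (SE 0.10, unadjusted p = 0.011, adjusted p = 0.51), again with overlap. All 3 stalk genes had lower means, with changes of -0.21 (SE 0.07) for Rplp1, -0.16 (SE 0.07) for Rplp2 and -0.08 (SE 0.03) for Rplp0, and adjusted p-values of 0.51, 0.53 and 0.55. Rps21 changed by -0.14 (SE 0.06, adjusted p = 0.52). With gene length removed, 13 members were higher and 3 lower at an unadjusted p under 0.05, against 3.78% and 4.81% of all genes, so that the balance of directions turned. Among the lists of related genes none had a member past the adjusted p, and at an unadjusted p under 0.05 it was 1 of 22 translation genes (lower), 4 of 31 biogenesis genes (1 higher and 3 lower) and 2 of 12 regulators (both lower). The summed adipocyte markers were 65.9 to 289 CPM in WT muscle and 93.6 to 697 CPM in the muscles labelled KO, and the leukocyte markers 48.5 to 139.97 and 61.2 to 246 CPM. The slow fibre markers were 0.0799 to 186 CPM (median 2.86) in WT muscle and 0.229 to 9.22 CPM (median 2.66) in those labelled KO, and all 3 tested were lower at an unadjusted p under 0.05, with a median of -1.63 (log2). The highest value was in the muscle of mouse 531, without which 5 members were past an unadjusted p of 0.05. The part of these markers in the values was not tested.

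Rpl3 and Rpl3l were at nearly the same level in the muscles labelled KO and WT. Rpl3 had 21.6 to 30.2 CPM in WT muscle (median 25.3) and 21.04 to 37.2 CPM in those labelled KO (median 26.7), a log2 fold change of 0.08 (SE 0.08, adjusted p = 0.80). Rpl3l had 353 to 436 CPM in WT muscle (median 379.6) and 319 to 406 CPM in those labelled KO (median 365), a change of -0.08 (SE 0.05, adjusted p = 0.65). Both ranges overlapped. There were 12.2 to 20.1 reads of Rpl3l for each read of Rpl3 in WT muscle (median 14.9) and 9.10 to 19.3 in those labelled KO (median 14.4). The mean log2 ratio of WT muscles was 3.92 ± 0.23 (SD, n = 11), and that of muscles labelled KO was 3.78 ± 0.31 (SD, n = 11), a difference of -0.14 (two-sided permutation test, 100000 resamples, p = 0.224). The lowest ratio, 9.10, was that of mouse 611, with 1422 reads of Rpl3, while the other muscles had 509 to 986.

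Across mice, Rpl3 and Rpl3l were compared within each genotype, a family of 2 relations. In WT muscle the log2 CPM of the pair had a Pearson r of -0.48 (permutation p = 0.138, adjusted p = 0.138) and a Spearman rho of -0.42 (permutation p = 0.204, adjusted p = 0.204). In the muscles labelled KO r was -0.61 (permutation p = 0.042, adjusted p = 0.084) and rho was -0.59 (permutation p = 0.0602, adjusted p = 0.12). When the 2 libraries with the most distant Rpl3 level were left out, r was -0.20 in WT and -0.42 in those labelled KO (permutation p = 0.599 and 0.264). Leaving out the ends of the Rpl3 range, with 9 libraries kept, is apt to weaken r in any case. It therefore cannot tell whether those 2 libraries carried the relation.

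Whether the difference between libraries labelled KO and WT was unlike in the tissues was tested as an interaction, with the same doubt about the muscle labels, which shares the libraries of the comparisons above. No member of 81 passed the adjusted p, as did 0.00678% of all genes, and DESeq2 gave 0 as well. At an unadjusted p under 0.05, 67 members were lower and none higher in muscle relative to liver, against 10% and 6.14% of all genes, with a median of the parent genes of -0.40. With the mouse as a block this was 22 members and a median of -0.29, against 7.12% of all genes lower and 8.22% higher. Without the 4 livers it was 3 members higher and none lower, against 3.17% and 1.63% of all genes, with a median of 0.02.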

How the data were processed

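Poly(A)-selected RNA of liver and skeletal muscle was sequenced by the study with a directional kit and 85-base single-end reads. The authors deposited raw read counts per gene (uniquely assigned reads) and RPKM values computed from them. Aligner and genome build are not given in the sources used here, and the submitters' processing notes name limma. Reads shared by copies of a gene may be missing from such values, which was not tested.

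From the counts, edgeR 4.0.16 was fitted on all genes that passed its filterByExpr (TMM scaling, quasi-likelihood test, Benjamini-Hochberg over all genes, threshold 0.05). Groups were WT and KO in liver and muscle, as labelled, with 11 mice each. Fits were made between tissues within genotype, between genotypes within tissue and for their interaction. RPKM values are printed as levels only, without correction for words shared with other genes. Rpl3l to Rpl3 ratios were compared by permutation (100000 resamples). Named genes were all paralogue pairs, the stalk genes and Rpsa, the 5 parent genes highest and the 5 lowest in the tissue comparison, and the 5 members with the largest statistic in each genotype comparison; genes at the end of a range are also named, and a few genes that the rule takes in are not reported here. Alternatives were DESeq2 1.42.0, limma-voom (limma 3.58.1), other scalings and filters, log2(RPKM + 1) and log2(RPKM + 0.1), gene length removed by a loess offset (span 0.3) of log2 CPM per library, the mouse as a block, and leaving out each mouse or the 4 KO livers with a slope below 0. The fits were tested on simulated counts, drawn for each gene on its own, with 50 genes changed at each fold and the rest unchanged. Of genes changed 1.3-fold there, 58% were called between WT tissues, 44% in liver, 62.5% in muscle and 32.7% in the interaction. Of genes changed 2-fold these shares were 98%, 89.6%, 94% and 66%. The simulated counts held neither the many tissue differences nor the joint shift of the members in the 4 livers. The shares are thus not the power for the members in these data. A small change that was not called is thus not shown to be absent. Members, lists and alternatives were chosen with earlier results of these data known. Liver and muscle are paired by animal number in the labels. The correlation over genes of the deviations of a mouse's liver and muscle from their group means was -0.02 to 0.18. Intervals and limits cover counting error only.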

Additional observations from a re-analysis of the deposited data

How the results depend on the processing

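The exchange of Rpl3 for Rpl3l kept its direction and its call under each alternative run, and 60 to 65 of 81 members were called between WT tissues when each mouse was left out. No member was called between genotypes or in the interaction in any of the edgeR fits that left out a mouse. With gene length removed the WT tissue median of the parent genes was 0.11, and Rpl6, Rps3a1 and Rps4x turned to 0.11, 0.11 and 0.0585. Rpl22 was -3.56e-05 with DESeq2, -0.00316 with limma-voom, -0.0157 without a filter, -0.0751 and -0.0758 in RPKM plus 1 and plus 0.1, and -0.00262 with the block, and -0.0192 to 0.0213 with each mouse left out. In KO mice the tissue median was -0.28 with library size alone, -0.34 with limma-voom, -0.22 in both RPKM fits, -0.34 with the mouse as a block, 0.00824 with gene length removed and -0.0299 without the 4 livers. In liver, the members at an unadjusted p under 0.05 numbered 28 with library size alone, 13 with limma-voom, 5 in both RPKM fits, 8 with gene length removed and 6, all lower, without the 4 livers. The medians were 0.29, 0.27, 0.21, 0.21, 0.0627 and -0.0436, and Rpl3 and Rpl38 turned to -0.12 and -0.00464 without the 4 livers. In muscle the number was 16 (13 higher) with gene length removed, and 9 (5 higher) without mouse 516. For the interaction it was 26, 24, 6, 6, 22 (block), 9 and 3 (without the 4 livers, all higher), with medians of -0.29, -0.30, -0.21, -0.21, -0.29, -0.0823 and 0.0202. Library size alone moved the median of all genes to 0.11 in the KO tissue fit and in the interaction. The Spearman correlation of Rpl3 and Rpl3l in the muscles labelled KO was -0.74 in RPKM and with library size alone (permutation p = 0.0124, adjusted p = 0.0249). The Pearson r of the same libraries moved the other way, from -0.61 to -0.50 in RPKM and -0.45 with library size alone. Its permutation p was 0.115 and 0.164 there (adjusted p = 0.182 and 0.186). The cause of these differences was not tested.

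Leaving out each mouse gave KO tissue medians of -0.46 to -0.30. In liver it gave 16 to 72 members and medians of 0.24 to 0.41, with 16 without mouse 532, 16 without mouse 602 and 40 without mouse 583. In muscle it gave 3 to 13 members, with 5 without mouse 531, 537 or 588, 4 without mouse 567 or 597, 3 without mouse 536 and 13 without mouse 586. For the interaction it gave 20 to 74 members and medians of -0.44 to -0.25, with 23 without mouse 532 and 20 without mouse 602. The Rpl3l to Rpl3 difference ran from -0.19 to -0.08, the latter without mouse 611. With the mouse as a block no other call of the paired comparisons changed in number by over 1.5 times.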
